A study of Mus musculus with 18 samples.

Results

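Bone marrow-derived macrophages labelled as a myeloid 14-3-3e knockout were compared with wild-type (WT) macrophages after both had been driven to the M1 state. The comparison takes 6 of the 18 RNA-seq libraries of the series, 3 of 14-3-3e KO macrophages and 3 of WT macrophages, chosen by their labelled genotype and stimulus and by no measured value. It covers all genes: of the 43309 genes in the deposited table, 21336 reached a normalised count of 1 in at least 3 of the 18 libraries and were tested. Both groups are C57BL/6 mouse cells, grown from marrow for 7 days in M-CSF (10 ng/ml) and 10% FBS and then given LPS (100 ng/ml) with IFNγ (20 ng/ml) for 18 h. It is set beside 2 further contrasts: the same genotypes in M2 macrophages, given IL-4 (20 ng/ml) for 18 h in place of LPS and IFNγ, and PGRN KO macrophages, which lack progranulin, in M1. The labels do not name the Cre line behind the myeloid knockout, nor the exons removed, nor do they say whether the 3 libraries of a group came from separate mice. If they did not, a p-value here reflects the spread among libraries alone, and that spread may be technical.

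The 14-3-3 proteins are small adaptor proteins that bind other proteins at phosphorylated serine or threonine residues, and so hold them in a compartment, shield them from phosphatases or change their activity. In the mouse 7 genes encode them, Ywhae among them for the epsilon form, and their clients include kinases, FOXO and other transcription factors, and proteins of cell death. M1 macrophages are the textbook outcome of LPS, which acts through the Toll-like receptor TLR4 and NF-kB, together with IFNγ, which acts through JAK kinases and STAT factors. They make inflammatory cytokines, chemokines, nitric oxide and antigen-presenting molecules.

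The values are normalised counts. The 14-3-3e KO libraries held 105315616, 42623961 and 19883550 reads, and the WT libraries 5157638, 14518830 and 7401174. The shallowest WT library was thus 20.4 times shallower than the deepest 14-3-3e KO library, and 1 read there was worth 4.46 normalised counts. Over 11645 well-measured genes, log2 values correlated at 0.972 to 0.981 between 14-3-3e KO libraries and at 0.912 to 0.941 between WT libraries. WT replicate 1, the shallowest library, was least like the 14-3-3e KO libraries, at 0.884 to 0.890. Reads of genes that resemble ribosomal RNA made up 1.86% of WT replicate 2 and at most 0.216% of the other libraries compared. Differences below are on the log2(normalised count + 1) scale, 14-3-3e KO minus WT, with the standard error of the fit, and a gene passes the test where limma's p, adjusted by Benjamini-Hochberg over all genes tested, is under 0.05.

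Ywhae itself, the targeted gene (GRCm38 chromosome 11, 75732869-75765845), was at 6214, 5191 and 5537 in 14-3-3e KO libraries, against 9859, 9021 and 9034 in WT libraries. Every 14-3-3e KO library lay below every WT library, with a difference of -0.72 ± 0.08 (adjusted p = 3.02e-05), so transcripts counted for the gene remained at 0.606 times the WT level. Whole-gene counts do not show which exons the remaining reads come from, and in bulk RNA fewer cells of a type and less RNA per cell cannot be told apart. Of the other 6 family members, 2 rose and 1 fell, and with Ywhae the counts were 2 higher and 2 lower also with the trends of length and GC content described below removed. Ywhaq, encoding the theta form, was at 3247, 3133 and 2844 in 14-3-3e KO libraries, against 2105, 2356 and 2143 in WT libraries (log2 difference 0.48 ± 0.08, adjusted p = 0.00151). Ywhab, encoding the beta form, was at 6164, 6049 and 5784 in 14-3-3e KO libraries, against 4464, 5341 and 5203 in WT libraries (log2 difference 0.27 ± 0.07, adjusted p = 0.0113). Sfn, which encodes the sigma form better known from epithelial cells, was at 48.2, 48.3 and 34.9 in 14-3-3e KO libraries, against 107, 99.2 and 109.7 in WT libraries (log2 difference -1.26 ± 0.24, adjusted p = 0.0026). In none of these 3 genes did the groups overlap. Ywhag, Ywhah and Ywhaz did not pass, at 0.11 ± 0.07, -0.02 ± 0.07 and 0.06 ± 0.08. Ywhae and Sfn also passed when the fit held no other group than the 2 compared, called the narrow fit below, with adjusted p = 0.0233 and 0.0401, whereas Ywhaq and Ywhab did not (adjusted p = 0.0609 and 0.176).

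**Figure D1:**
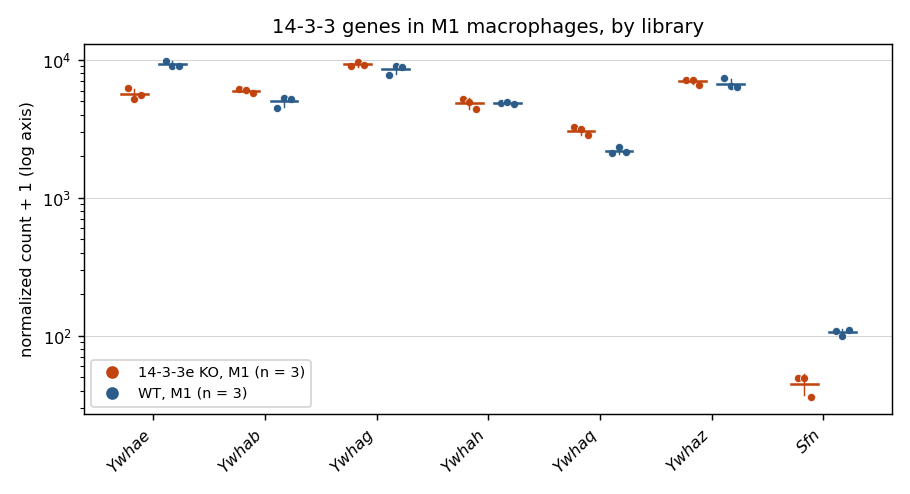
Normalised counts plus 1 (log axis) of the 7 genes of the 14-3-3 family in 3 14-3-3e KO and 3 WT libraries of M1 macrophages; points are libraries, horizontal lines means and vertical lines 1 SD. The 14-3-3e KO libraries of Ywhae sit between 5191 and 6214, all below the WT libraries.

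Across all genes, 2554 (12%) were higher and 1987 (9.31%) lower in 14-3-3e KO than in WT M1 macrophages, together 4541 (21.3%). A change of more than 2-fold was seen in 701 of the higher and 422 of the lower genes. In 4242 of the 4541 genes the 2 groups did not overlap, beside 6994 (32.8%) of all genes tested. These calls use the spread of all 6 groups of the series. In the narrow fit 220 genes (1.03%) were higher and 165 (0.773%) lower, together 385 (1.80%), and 375 of the 4541 passed in the same direction. After thinning every library to the depth of the shallowest one, 1524 were higher (7.68%) and 1172 lower (5.90%) of 19851 genes tested. The split between directions moved with the scaling: 2964 higher and 1216 lower with library totals as the scale, and 1586 higher and 2166 lower with voom on the recovered reads. Leaving out 1 library gave 1276 higher and 996 lower without 14-3-3e KO replicate 2, 1669 and 1312 without 14-3-3e KO replicate 1, 1614 and 1137 without WT replicate 1, and, at most, 3583 and 2875 without WT replicate 2.

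**Figure D2:**
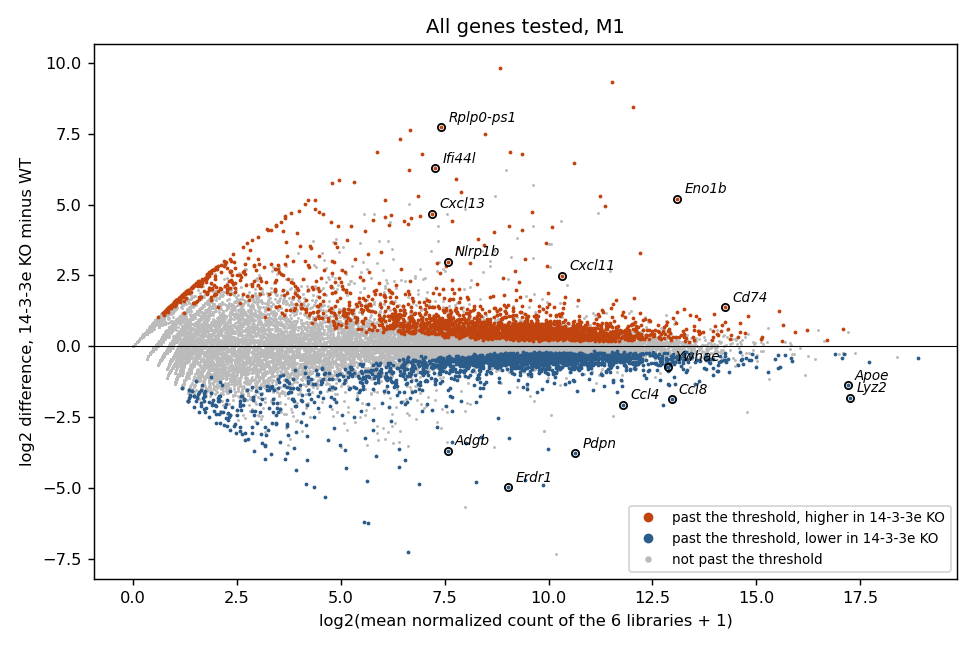
Difference in level (log2, 14-3-3e KO minus WT, vertical axis) against mean level (log2 of the mean normalised count of the 6 libraries plus 1, horizontal axis) for the 21336 genes tested in M1 macrophages. Red points were higher and blue points lower at an adjusted p under 0.05, grey points did not pass, and circled genes are named in the text.

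The direction of a gene's difference followed its length. Protein-coding genes with a mean of at least 5 CPM were divided into 5 equal groups by the summed length of their exons, with medians of 1868, 3261, 4607, 6402 and 10162 bp. Their median difference was -0.25, -0.05, 0.05, 0.14 and 0.27 from the shortest to the longest group. In the shortest group 3.59% were higher and 32.1% lower, and in the longest 36.1% were higher and 3.06% lower. The same order was seen in M2, with other libraries, where the medians for 14-3-3e KO minus WT were -0.22, -0.08, 0.02, 0.09 and 0.20. For PGRN KO minus WT in M1, against the same WT libraries, they were -0.12, 0.02, 0.08, 0.16 and 0.18. The WT libraries of M1 also differed among themselves by gene length. In the shortest group WT replicate 1 lay 0.21 above and WT replicate 2 lay 0.18 below the mean of its group (log2), and in the longest group they lay 0.19 below and 0.16 above it. GC content showed a further trend, with 26.4% higher and 6.75% lower in the 2060 genes poorest in GC, and 9.27% higher and 23.9% lower in the 2060 richest. With both trends removed from every library, 2111 genes (9.89%) were higher and 1849 (8.67%) lower, together 3960 (18.6%), and 2870 of the 4541 kept their direction and passed. Counts for gene groups are therefore given below also with the trends removed, and the part of length and GC content in the remaining calls was not tested. Every such count stands beside shares over all genes of 12% higher and 9.31% lower as deposited. With the trends removed these shares were 9.89% and 8.67%. Over the 15951 protein-coding genes tested, 14.5% were higher and 11.2% lower as deposited. The shares over all genes include pseudogenes, of which 8.30% passed in either direction. With the trends removed, the 5 length groups above had 11.2% to 14.6% higher and 9.08% to 17.5% lower. A list share above that over all genes is thus no excess in itself, and lists were not tested against genes of like level and length.

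**Figure D3:**
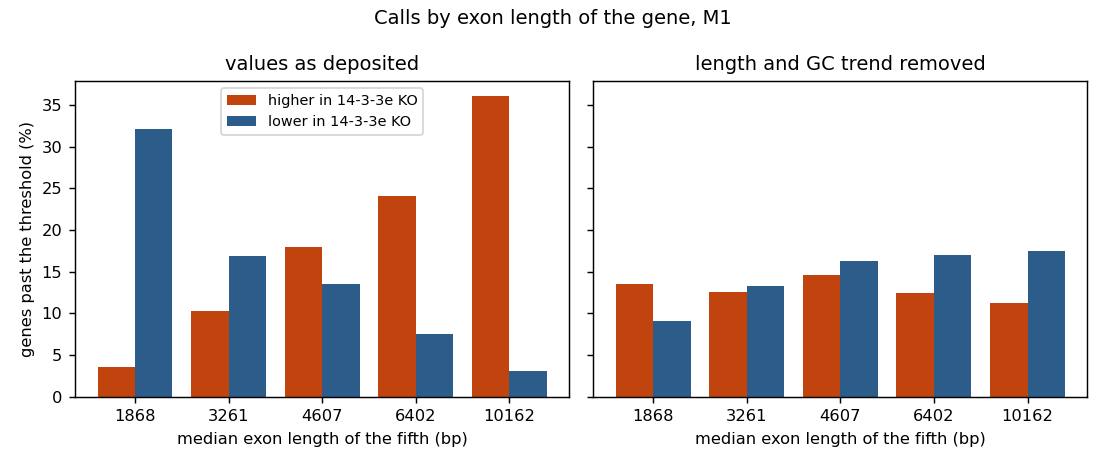
Share of genes past the threshold (percent, vertical axis) in 5 groups of protein-coding genes ordered by exon length (horizontal axis, median length in bp), as deposited (left) and with the length and GC trends removed (right). Red bars are genes higher and blue bars genes lower in 14-3-3e KO M1 macrophages; as deposited, the share higher was 3.59% in the shortest and 36.1% in the longest group.

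Erdr1, Rpgrip1, Syn3 and Pdpn, the gene of podoplanin, headed the 15 largest falls, at -4.99, -4.88, -4.80 and -3.78 (log2), taken among genes past the threshold whose groups did not overlap and that had a mean of at least 5 CPM. Pdpn, which encodes a membrane glycoprotein that binds the platelet receptor CLEC-2, was at 162, 195 and 319 in 14-3-3e KO libraries, against 3009.9, 3159.8 and 2770.5 in WT libraries. All 3 14-3-3e KO libraries were far below all 3 WT libraries, a difference of -3.78 ± 0.25 (adjusted p = 1.1e-07), or 13.7-fold. Erdr1, which GENCODE places where the X and Y chromosomes share sequence, was at 16.5, 44.3 and 31.7 in 14-3-3e KO libraries, against 1467, 569 and 991 in WT libraries (log2 difference -4.99 ± 0.44, adjusted p = 7.34e-06). Adgb, encoding androglobin, was at 12.9, 36.7 and 33.9 in 14-3-3e KO libraries, against 241, 369.6 and 445 in WT libraries (log2 difference -3.70 ± 0.38, adjusted p = 1.06e-05). In both, every WT library was far above every 14-3-3e KO library. Npy, which encodes neuropeptide Y, was at 101, 83.0 and 29.6 in 14-3-3e KO libraries, against 611, 547 and 607 in WT libraries (log2 difference -3.20 ± 0.42, adjusted p = 0.000232), and 14-3-3e KO replicate 3 was the lowest of the 6. Spon2, encoding the matrix protein spondin 2, and Draxin, an axon guidance gene, were lower, with log2 differences of -2.28 ± 0.30 and -2.27 ± 0.27 (adjusted p = 0.000136 and 6.29e-05). Each of these 6 genes passed also in the narrow fit and whichever single library was left out. Wfdc17, a small secreted protein gene of chromosome 11, was at 4137, 2228 and 2033 in 14-3-3e KO libraries, against 10916, 10768 and 11621 in WT libraries (log2 difference -2.06 ± 0.19, adjusted p = 4.71e-06). Tarm1, an activating receptor of myeloid cells, was at 119, 169 and 41.3 in 14-3-3e KO libraries, against 406, 341 and 347 in WT libraries (log2 difference -1.94 ± 0.34, adjusted p = 0.00165). Groups that did not overlap were a condition for every gene of this set, so that adds no evidence for any of them. Of the 2 genes, Wfdc17 alone passed in the narrow fit. Rpgrip1, Syn3, Myo1h and Etohd2 varied between the WT libraries (1445, 43.6 and 323 for Syn3), and Rpgrip1, Syn3 and Myo1h no longer passed in at least 1 fit without a single library (highest adjusted p = 0.058, 0.113 and 0.156). The immunoglobulin gene Ighg2b was at 163, 74.9 and 69.8 in 14-3-3e KO libraries, against 1396, 676 and 780.2 in WT libraries (log2 difference -3.24 ± 1.02, adjusted p = 0.0406, highest without a single library 0.132). Syn3 overlaps Timp3 and Etohd2 is an antisense gene, so their reads may belong to a neighbour. Ccl4 and Ccl8, also in this set, are described with the chemokines.

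Of the 15 largest rises by the same rule, 6 were not copies of another gene. Cxcl13, the chemokine that draws B cells into follicles, was at 277, 292 and 275 in 14-3-3e KO libraries, against 8.92, 18.0 and 6.10 in WT libraries. The 14-3-3e KO libraries were even and all above WT, a difference of 4.68 ± 0.72 (adjusted p = 0.000562). Lilra6, an immunoglobulin-like receptor gene of a multigene family whose reads may be shared between members, was at 704, 826 and 1475 in 14-3-3e KO libraries, against 35.7, 84.1 and 39.6 in WT libraries (log2 difference 4.24 ± 0.39, adjusted p = 4.32e-06). Serpina3n, a secreted inhibitor of serine proteases induced in inflammation, was at 543, 437 and 185 in 14-3-3e KO libraries, against 4.46, 22.5 and 33.5 in WT libraries (log2 difference 4.43 ± 0.62, adjusted p = 0.000398). Gdpd3, a lysophospholipase D gene, was at 389.6, 395 and 444 in 14-3-3e KO libraries, against 40.1, 30.1 and 39.6 in WT libraries (log2 difference 3.46 ± 0.34, adjusted p = 8.31e-06). These 4 genes passed also in the narrow fit and whichever library was left out. Chil1, which encodes a chitinase-like protein, was at 2389, 2139 and 60.3 in 14-3-3e KO libraries, against 40.1, 16.5 and 21.3 in WT libraries (log2 difference 4.75 ± 1.05, adjusted p = 0.00746). The interferon-induced gene Ifi44l was at 392, 514 and 8.47 in 14-3-3e KO libraries, against 0, 0 and 3.05 in WT libraries (log2 difference 6.28 ± 1.24, adjusted p = 0.00338). WT held 1 read in all, and the ratio of pooled reads was 459 with a 95% counting interval of 82.3 to 18128. Pooling gives most weight to the deeper 14-3-3e KO replicates 1 and 2, and the interval leaves out the spread among libraries. In both Chil1 and Ifi44l, 14-3-3e KO replicate 3 stood near the WT level, unlike replicates 1 and 2.

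The other 9 of the 15 largest rises carry names of processed or related copies: Rplp0-ps1, Rbpsuh-rs3, Rps3a3, Rps3a2, Eif5al3-ps, Eno1b, Tpm3-rs7, Rps13-ps1 and Rps15a-ps7. Reads of such copies can be shared with the gene they resemble, so their levels are uncertain. Tpm3-rs7 was at 5511, 3730.0 and 5934 in 14-3-3e KO libraries, against 111, 180.3 and 198 in WT libraries (log2 difference 4.96 ± 0.21, adjusted p = 5.17e-10). Rps3a3 was at 3326, 2527 and 3366 in 14-3-3e KO libraries, against 40.1, 24.0 and 39.6 in WT libraries (log2 difference 6.46 ± 0.58, adjusted p = 1.05e-05). Eno1b was at 9535, 18564 and 23200.2 in 14-3-3e KO libraries, against 629, 302 and 429.7 in WT libraries (log2 difference 5.20 ± 1.58, adjusted p = 0.0354, highest without a single library 0.0984). Rbpsuh-rs3 was at 824, 978 and 939 in 14-3-3e KO libraries, against 0, 482 and 0 in WT libraries (log2 difference 6.86 ± 1.81, adjusted p = 0.0196). It did not pass in the narrow fit (adjusted p = 0.172) or in every fit without a single library (highest 0.0844). The other copies passed whichever library was left out. Rplp0-ps1 had 2684 reads in 14-3-3e KO and 2 reads in WT libraries, a ratio of 207 with a 95% counting interval of 57.3 to 1712. All 9 stood higher in each of the 6 14-3-3e KO libraries, M1 and M2, than in each of the 12 WT and PGRN KO libraries. The genes they resemble went the other way in 7 of the 9 pairs, with a lower level past the threshold, and none was higher. The log2 difference was -1.39 ± 0.18 for Rps13, -1.22 ± 0.15 for Rps3a1, the relative of both Rps3a2 and Rps3a3, -0.91 ± 0.09 for Rplp0, -0.68 ± 0.16 for Eno1, -0.67 ± 0.15 for Rps15a and -0.45 ± 0.11 for Tpm3. Summed with its copy, Tpm3 was at 18538 ± 786 in 14-3-3e KO libraries and 18540.5 ± 1498 in WT libraries (SD, n = 3 each). The sum of Eno1 and Eno1b was 35802 ± 3121 in 14-3-3e KO libraries and 30064 ± 2808 in WT libraries, and that of Rplp0 and Rplp0-ps1 was 14632 ± 282 in 14-3-3e KO libraries and 27045 ± 3789 in WT libraries. The summed level thus hardly differed for Tpm3 and was lower in 14-3-3e KO for Rplp0. Among the 2409 annotated pseudogenes tested, 143 were higher and 57 lower (5.94% and 2.37%). Those shares were below the 12% and 9.31% over all genes. Of the pseudogenes past the threshold and over 4-fold, 92 were higher and 12 lower, beside 253 and 141 over all genes. Protein-coding genes over 4-fold numbered 125 higher and 92 lower of 15951.

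More CC chemokine genes were lower than higher. Their products attract monocytes, T cells and other leukocytes through CCR receptors. Of 15 genes, 8 were lower and 1 higher, beside 9.31% lower and 12% higher over all genes, and the median difference was -0.63, beside 0.07. With the length and GC trends removed the median was -0.31, beside 0.08. In PGRN KO M1 macrophages, against the same WT libraries, 8 of the 15 were also lower (median -0.61), beside 11.1% of all genes. The ligand genes named below lie on chromosome 11, as does Ywhae, Ccl3 at 7.90 Mb and Ccl8 at 6.37 Mb from it. Of 411 genes tested within 10 Mb of Ywhae 23.4% passed in either direction, beside 21.2% on other chromosomes. Sequence just before the start of Ccl3, Ccl9 and Ccl8, 3 ligand genes that fell together, is shown with that of Pdpn, which fell 13.7-fold, and of Cxcl13, which rose. Each is the 250 bases before the RefSeq start on the gene's own strand (RefSeq, GRCm38.p6), 5′ to 3′, with matches to a C/EBP motif (TTGCNNAA), an AP-1 motif (TGANTCA) or the TATA box (TATAAA) on either strand in capitals. Motif matches that overlap run together.
Ccl3, chr11:83649379-83649628, minus strand: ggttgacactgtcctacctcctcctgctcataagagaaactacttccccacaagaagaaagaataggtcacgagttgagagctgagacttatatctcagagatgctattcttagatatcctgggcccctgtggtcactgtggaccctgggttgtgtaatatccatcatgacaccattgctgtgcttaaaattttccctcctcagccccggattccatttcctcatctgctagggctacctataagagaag
Ccl9, chr11:83578637-83578886, minus strand: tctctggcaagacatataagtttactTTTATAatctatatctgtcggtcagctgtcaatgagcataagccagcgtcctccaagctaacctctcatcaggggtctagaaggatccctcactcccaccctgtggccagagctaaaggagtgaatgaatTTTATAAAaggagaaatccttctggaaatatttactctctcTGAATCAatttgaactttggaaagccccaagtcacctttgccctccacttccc
Ccl8, chr11:82114935-82115184, plus strand: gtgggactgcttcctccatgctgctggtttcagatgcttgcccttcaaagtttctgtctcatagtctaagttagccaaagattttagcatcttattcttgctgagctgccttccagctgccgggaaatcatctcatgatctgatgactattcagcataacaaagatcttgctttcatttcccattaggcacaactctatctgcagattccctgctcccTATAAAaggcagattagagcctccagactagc
Pdpn, chr4:143299565-143299814, minus strand: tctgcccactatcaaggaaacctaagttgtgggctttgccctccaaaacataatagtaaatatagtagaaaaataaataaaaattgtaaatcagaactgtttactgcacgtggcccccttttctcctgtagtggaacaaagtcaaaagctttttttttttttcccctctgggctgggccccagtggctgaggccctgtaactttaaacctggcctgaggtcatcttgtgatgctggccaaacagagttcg
Cxcl13, chr5:95956689-95956938, plus strand: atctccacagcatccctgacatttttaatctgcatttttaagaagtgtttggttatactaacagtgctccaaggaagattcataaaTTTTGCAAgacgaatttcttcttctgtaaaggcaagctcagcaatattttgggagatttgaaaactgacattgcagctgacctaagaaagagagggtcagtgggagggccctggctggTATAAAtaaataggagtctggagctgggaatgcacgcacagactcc
TATAAA was present in 3 of the 5 windows, beside 12.4% of 32851 RefSeq windows of that length, the AP-1 motif in 1 (6.75%) and the C/EBP motif in 1 (9.56%). An NF-kB motif (GGGA, any 2 bases, TTCC; 1.21% of all windows) and an interferon response motif (GAAA, any 2 bases, GAAA; 2.98%) were also searched on both strands, and these letters were in none of the 5 windows.

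Of the ligands, Ccl4, encoding MIP-1β, was at 1418, 1489 and 1109 in 14-3-3e KO libraries, against 7817, 4835 and 4578 in WT libraries, a difference of -2.07 ± 0.19 (adjusted p = 3.82e-06). Ccl3, encoding MIP-1α, was at 2081, 2103 and 1531 in 14-3-3e KO libraries, against 5757, 4599 and 4739 in WT libraries (log2 difference -1.41 ± 0.13, adjusted p = 4.32e-06). In both, every 14-3-3e KO library lay well under every WT library. Ccl9 was at 5635, 4399 and 2987 in 14-3-3e KO libraries, against 12111, 9234 and 10448 in WT libraries (log2 difference -1.33 ± 0.19, adjusted p = 0.000397). Ccl8, a monocyte chemoattractant, was at 4317, 2889.6 and 3081 in 14-3-3e KO libraries, against 16035, 10361 and 11234 in WT libraries (log2 difference -1.87 ± 0.41, adjusted p = 0.00797). These 4 also passed in the narrow fit, with adjusted p between 0.0124 and 0.0436. The CCR2 ligands Ccl2, Ccl7 and Ccl12 were lower, with log2 differences of -0.55 ± 0.16, -0.76 ± 0.22 and -0.85 ± 0.21, calls that ended with the length and GC trends removed (adjusted p = 0.452, 0.368 and 0.367). Among receptors, Ccr3 was lower (-0.63 ± 0.21) and Ccr2, the receptor of Ccl2, higher (0.61 ± 0.20, adjusted p = 0.21 with the trends removed). With the trends removed 6 of the 15 genes were lower, Ccl4, Ccl3, Ccl9, Ccl8 and Ccr3 among them.

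Of the CXC and CX3C chemokines and receptors, 5 of 14 genes were higher and 2 lower (median difference 0.17), and the same counts held with the length and GC trends removed. Beside Cxcl13, Cxcl14 was at 4537, 4756 and 5466 in 14-3-3e KO libraries, against 2823, 1889 and 1798 in WT libraries (log2 difference 1.21 ± 0.31, adjusted p = 0.0153). Cx3cl1, the fractalkine gene, was at 499, 427 and 409.6 in 14-3-3e KO libraries, against 201, 301 and 244 in WT libraries (log2 difference 0.85 ± 0.18). Receptor genes were also higher. Cx3cr1, the fractalkine receptor, was at 345, 429.5 and 296 in 14-3-3e KO libraries, against 134, 107 and 85.3 in WT libraries (log2 difference 1.71 ± 0.38, adjusted p = 0.00651). Cxcr4, the receptor of CXCL12, was at 703, 489 and 405 in 14-3-3e KO libraries, against 339, 272 and 271 in WT libraries (log2 difference 0.82 ± 0.18). All the 14-3-3e KO libraries lay above the WT libraries in these 4 genes. Pf4, platelet factor 4, fell to 1057, 728 and 1027 in 14-3-3e KO libraries, against 2649, 1881 and 2115 in WT libraries (log2 difference -1.24 ± 0.15, adjusted p = 8.84e-05). Cxcl5, a ligand of CXCR2, was lower, with a log2 difference of -1.77 ± 0.41. Cxcl13, Cxcl14, Cx3cr1 and Pf4 passed also in the narrow fit.

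**Figure D4:**
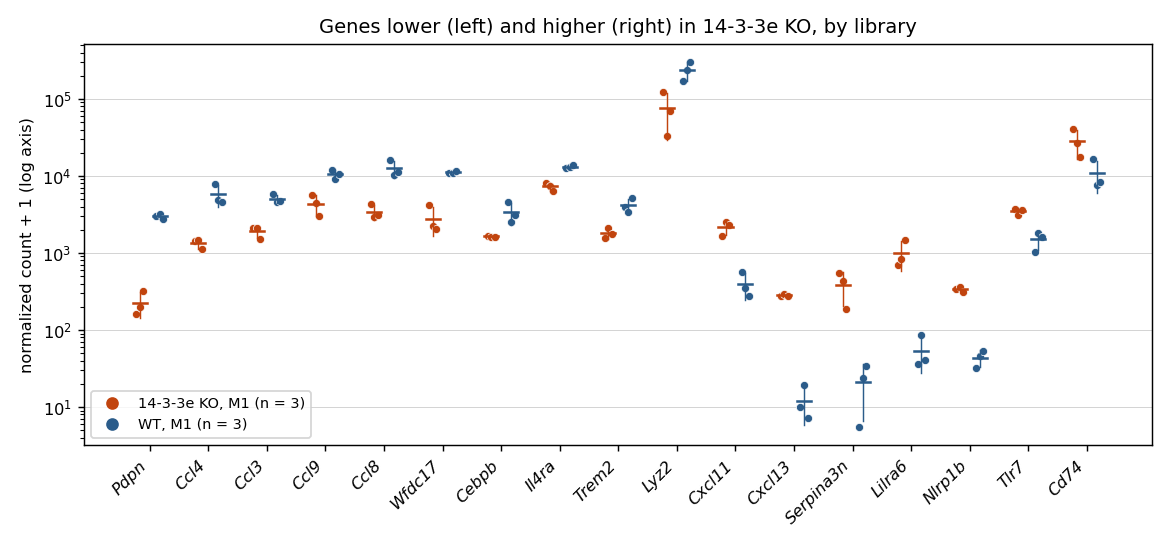
Normalised counts plus 1 (log axis) of 10 genes lower and 7 genes higher in 14-3-3e KO M1 macrophages, by library; points are libraries (n = 3 each), horizontal lines means and vertical lines 1 SD. The 17 genes were taken from those past the threshold, and their groups do not overlap, as in 4242 of all 4541 such genes. For Pdpn the highest 14-3-3e KO library is at 319 and the lowest WT library at 2770.5.

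Of 28 markers of the M1 state, 5 were higher and 1 lower (17.9% and 3.57%). The shares were 12% and 9.31% over all genes, and 14.5% and 11.2% over protein-coding genes. With the trends removed 6 were higher, beside 9.89% over all genes. Cxcl11, named for an interferon-induced ligand of CXCR3, was at 1671, 2502 and 2334 in 14-3-3e KO libraries, against 566, 355 and 271 in WT libraries (log2 difference 2.49 ± 0.35, adjusted p = 0.000279). GENCODE classes Cxcl11 as a polymorphic pseudogene, and whether these transcripts yield a working ligand was not tested. Ass1, which makes argininosuccinate for arginine synthesis, was at 2536, 3741 and 2730.4 in 14-3-3e KO libraries, against 1574, 1328 and 1639.7 in WT libraries (log2 difference 0.97 ± 0.22, adjusted p = 0.00771). Il1b, encoding interleukin-1β, was at 3366, 3969 and 2337 in 14-3-3e KO libraries, against 2060.2, 1261 and 1103 in WT libraries (log2 difference 1.15 ± 0.28, adjusted p = 0.0106). The 14-3-3e KO libraries were all above WT in these genes, and Cxcl11 and Ass1 passed also in the narrow fit. Ptgs2, the prostaglandin synthase COX-2, was higher by 1.39 ± 0.47 (log2). Il12b, the p40 chain of IL-12, rested on 139 reads in 14-3-3e KO and 3 reads in WT libraries, a ratio of 7.15 with a 95% counting interval of 2.40 to 35.1. Il15 was lower, with a log2 difference of -0.50 ± 0.14. Nos2, the inducible nitric oxide synthase, was at 442, 597 and 625 in 14-3-3e KO libraries, against 348, 368 and 326 in WT libraries. Il6 was at 49.4, 44.8 and 48.7 in 14-3-3e KO libraries, against 22.3, 30.1 and 15.2 in WT libraries, and neither passed (adjusted p = 0.349 and 0.197). Tnf was at 1573, 1898 and 1778 in 14-3-3e KO libraries, against 2042, 1974 and 2197 in WT libraries and did not pass (-0.25 ± 0.15, adjusted p = 0.255), although its groups did not overlap. With the trends removed the difference of Tnf turned to 0.0390 (adjusted p = 0.906).

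The 30 markers of the M2 state moved in both directions, 9 higher and 7 lower (30% and 23.3%), and with the trends removed 8 and 5. Il4ra, the IL-4 receptor chain, was at 8153, 7439 and 6409 in 14-3-3e KO libraries, against 12615, 13015 and 13922 in WT libraries, and all 3 14-3-3e KO libraries were lower (-0.85 ± 0.12, adjusted p = 0.000281). Il10, the anti-inflammatory cytokine, was at 219.5, 156 and 159.8 in 14-3-3e KO libraries, against 589, 496 and 421 in WT libraries (log2 difference -1.49 ± 0.32, adjusted p = 0.00538), and both genes passed in the narrow fit. Retnla, a canonical gene of alternative activation, was at 4.24, 3.02 and 8.47 in 14-3-3e KO libraries, against 26.8, 51.1 and 9.14 in WT libraries (log2 difference -2.07 ± 0.56, adjusted p = 0.0199). Arg1, encoding arginase, was at 30.9, 23.1 and 75.1 in 14-3-3e KO libraries, against 143, 159 and 73.1 in WT libraries (log2 difference -1.62 ± 0.41, adjusted p = 0.0148). Both were low in these M1 cells, and the groups overlapped for Arg1. The lectin gene Clec10a was lower, with a log2 difference of -1.27 ± 0.32. Klf4 and Myc, 2 transcription factor genes linked to alternative activation, were higher by 0.84 ± 0.19 and 0.50 ± 0.12 (log2). Ccl22, a chemokine for CCR4, was also higher, at 61.1, 37.7 and 50.8 in 14-3-3e KO libraries, against 17.8, 18.0 and 3.05 in WT libraries (log2 difference 2.14 ± 0.65, adjusted p = 0.0295).

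Most signalling genes differed by less than 2-fold. In the TNF receptor pathway, whose receptors carry TNF signals to NF-kB and to cell death, 5 of 30 genes were higher and 1 lower (16.7% and 3.33%). No gene of this list or of the NF-kB, C/EBP, PI3K and MAP kinase lists passed in the narrow fit. The receptor genes Tnfrsf1a and Tnfrsf1b did not pass (-0.12 ± 0.06 and -0.33 ± 0.12). Neither did the ligand genes Lta and Ltb (-0.95 ± 0.54 and -0.91 ± 0.47), nor Grn, which encodes progranulin, a reported ligand of TNF receptors (-0.36 ± 0.22). Nor did the adaptor genes Traf1 (0.45 ± 0.21), Traf2 (-0.14 ± 0.11), Traf3 (0.34 ± 0.14), Traf5 (-0.13 ± 0.12), Traf6 (0.26 ± 0.11), Fadd (-0.16 ± 0.09) and Tank (0.33 ± 0.13). Among downstream kinases and enzymes, Casp8, the initiator caspase, was at 1947, 2055 and 1905 in 14-3-3e KO libraries, against 1057, 1731 and 1725 in WT libraries (log2 difference 0.42 ± 0.13, adjusted p = 0.0329). It was the only one of the 5 rises that also passed with the length and GC trends removed, where Ripk1 lay at -0.00736. Map3k7, the kinase TAK1, Birc3, a ubiquitin ligase, Tnfaip3, the feedback inhibitor A20, and Ripk1, a kinase of inflammation and cell death, were higher by 0.29 ± 0.08, 0.32 ± 0.09, 0.32 ± 0.10 and 0.26 ± 0.09 (log2). Tradd, the adaptor of TNFR1, was lower, with a log2 difference of -0.39 ± 0.12. Cflar, Birc2, Tnip1, Tab1, Tab2, Map3k5, Map3k14, Chuk, Ikbkb, Ikbkg and Adam17 did not pass, with differences from -0.30 (Birc2) to 0.26 (Adam17). With the trends removed 1 gene of the pathway was higher and 3 were lower, Cflar, Birc2 and Ikbkb, at -0.33, -0.38 and -0.42.

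Of 12 NF-kB genes, 4 were lower and 1 higher, and these 5 calls ended with the trends removed. Nfkb1, the p105 precursor, was higher by 0.53 ± 0.10 (log2). Rela, the p65 subunit, Bcl3, Nfkbil1 and the inhibitor Nfkbia were lower, with log2 differences of -0.31 ± 0.08, -0.36 ± 0.09, -0.52 ± 0.17 and -0.24 ± 0.08. Among 6 C/EBP factors, regulators of myeloid differentiation and of acute inflammatory genes, 2 were lower. Cebpb was at 1678, 1629 and 1609.7 in 14-3-3e KO libraries, against 4575, 2494 and 3109 in WT libraries (log2 difference -1.003 ± 0.169, adjusted p = 0.00119), with all 14-3-3e KO libraries under all WT libraries. The difference was -0.53 once the trends were removed (adjusted p = 0.00799). Cebpa was at 2253, 1638 and 1722 in 14-3-3e KO libraries, against 2404, 2255 and 2231 in WT libraries (log2 difference -0.31 ± 0.10, adjusted p = 0.0424), its groups overlapped and the call ended with the trends removed. Cebpd, Cebpe, Cebpg and Cebpz did not pass, at 0.14 ± 0.12, -0.99 ± 0.62, -0.24 ± 0.09 and 0.17 ± 0.07, and Cebpg was lower with the trends removed (-0.39).

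The PI3K-AKT-mTOR list includes proteins known to bind 14-3-3, among them FOXO1, TSC2 and PRAS40, the product of Akt1s1. Of its 29 genes 11 were higher and 0 lower by limma, with 1 lower at an unadjusted p under 0.05 and 0 lower by voom. Its genes are long, with a median exon length of 7571 bp, and with the length and GC trends removed 5 were higher and 6 lower. Of the rises that also passed then, Irs2, an insulin receptor substrate, was at 140.0, 148 and 86.8 in 14-3-3e KO libraries, against 22.3, 72.1 and 76.2 in WT libraries (log2 difference 1.27 ± 0.34, adjusted p = 0.017). Pdpk1, the kinase PDK1, and Rps6kb1, the S6 kinase, were higher by 0.66 ± 0.13 and 0.61 ± 0.13 (log2). The 14-3-3e KO libraries lay above the WT libraries in these 3 genes. The catalytic subunit genes Pik3ca, Pik3cb and Pik3cg were higher by 0.24 ± 0.07, 0.40 ± 0.08 and 0.60 ± 0.19 (log2). Mtor, Rictor and Foxo1 were higher by 0.32 ± 0.11, 0.42 ± 0.13 and 0.57 ± 0.17 (log2). These 6 calls ended with the trends removed, where Pik3ca lay at -0.0451. Akt1 (0.18 ± 0.06) did not pass as deposited and was higher by 0.24 with the trends removed. Akt2 (-0.10 ± 0.06), Pik3cd (-0.22 ± 0.10), Pik3r1 (-0.11 ± 0.09), Inpp5d (-0.08 ± 0.10), Rheb (-0.02 ± 0.06) and Tsc2 (within 0.01 of WT) did not pass as deposited and were the 6 lower with the trends removed. Of the other members, Pik3r2, Pik3r5, Pik3ap1, Tsc1, Rptor, Mlst8, Akt1s1, Eif4ebp1, Ddit4, Sesn2 and Foxo3, did not pass in either form, with differences from -0.08 (Ddit4) to 0.59 (Pik3ap1).

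Of 25 MAP kinases and phosphatases, 5 were higher and 1 lower, and with the trends removed 5 and 4. Dusp6, the phosphatase of ERK, was at 1551, 1261 and 1357 in 14-3-3e KO libraries, against 887, 936 and 999.7 in WT libraries (log2 difference 0.56 ± 0.09, adjusted p = 0.000616). Map2k1, the kinase MEK1, was higher by 0.32 ± 0.08 (log2) and Mapk14, the kinase p38α, by 0.35 ± 0.10. Dusp10 was lower, with a log2 difference of -0.51 ± 0.14. The kinase gene Braf, whose protein binds 14-3-3, did not pass as deposited (0.06 ± 0.12) and was lower with the trends removed (-0.29). In the JAK-STAT and SOCS list, 2 of 20 genes were higher, and with the trends removed 1 was higher and 2 lower. None of the list passed in the narrow fit. Jak1, a kinase of interferon receptors, was higher by 0.43 ± 0.11 (log2) and passed also with the trends removed.

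Sensor genes of innate immunity included changes of 2-fold and more. Of 24 Toll-like receptors and adaptors, 6 were higher and 4 lower (25% and 16.7%), and with the trends removed 5 and 4. Tlr7, the endosomal receptor for single-stranded RNA, was at 3778, 3099.8 and 3624 in 14-3-3e KO libraries, against 1039, 1842 and 1606 in WT libraries (log2 difference 1.26 ± 0.19, adjusted p = 0.000504). Tlr8, a related receptor, was higher by 1.88 ± 0.45 (log2). Cd14, the LPS co-receptor, was at 10516, 12579.7 and 9529 in 14-3-3e KO libraries, against 6323, 4587 and 5334 in WT libraries (log2 difference 1.01 ± 0.17, adjusted p = 0.000959). Tlr1, which pairs with TLR2 for lipopeptides, was at 985, 1078 and 719 in 14-3-3e KO libraries, against 1744, 2375 and 2268 in WT libraries (log2 difference -1.21 ± 0.14, adjusted p = 3.58e-05). Tlr7 and Cd14 were above WT in every 14-3-3e KO library, Tlr1 below, and these 3 passed in the narrow fit. Lbp, the LPS-binding protein, and Ly86, the partner of RP105, were lower, with log2 differences of -0.90 ± 0.20 and -0.86 ± 0.20. Irak3, a brake on Toll-like receptor signalling, was higher by 0.64 ± 0.16 (log2). Tlr4 itself was at 809, 917 and 673 in 14-3-3e KO libraries, against 539.6, 768 and 735 in WT libraries and did not pass (0.24 ± 0.13, adjusted p = 0.218).

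The inflammasome and cell death list had 5 of 26 genes higher and 7 lower (19.2% and 26.9%), and with the trends removed 6 and 6. Nlrp1b, an inflammasome sensor gene on chromosome 11, 4.56 Mb from Ywhae, was at 340.4, 357 and 314 in 14-3-3e KO libraries, against 31.2, 45.1 and 51.8 in WT libraries (log2 difference 2.98 ± 0.19, adjusted p = 5.61e-08). It has related neighbours that may share its reads. Nlrc4, the partner of the NAIP sensors for bacterial flagellin, was at 443, 451 and 373 in 14-3-3e KO libraries, against 156, 161 and 189 in WT libraries (log2 difference 1.32 ± 0.13, adjusted p = 8.62e-06). Nlrp3 was at 1631, 1783 and 1613 in 14-3-3e KO libraries, against 754, 1073 and 1015 in WT libraries (log2 difference 0.84 ± 0.15, adjusted p = 0.00151). All 3 sensor genes were higher in every 14-3-3e KO library and passed in the narrow fit, whereas Naip5, which senses flagellin, was lower, with a log2 difference of -0.69 ± 0.14. The effector genes Casp1, Casp4 and Gsdmd, the pore-forming gasdermin, were lower, with log2 differences of -0.28 ± 0.08, -0.28 ± 0.09 and -0.44 ± 0.09. The apoptosis genes Bcl2l11, Bcl2l1 and Mcl1 were also lower, with -0.45 ± 0.09, -0.40 ± 0.10 and -0.21 ± 0.07. Bcl2, which restrains apoptosis, was higher by 0.54 ± 0.18 (log2).

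Among interferon-induced genes, 4 of 35 of the type I response were higher and 3 lower (11.4% and 8.57%). Likewise 4 of 30 of the IFNγ response were higher and 2 lower (13.3% and 6.67%), beside 12% and 9.31% over all genes. In each list 3 were higher and 2 lower with the trends removed. Xaf1, a pro-apoptotic interferon-induced gene 3.44 Mb from Ywhae, was at 12328, 12432 and 11972 in 14-3-3e KO libraries, against 6421, 4728 and 4800.3 in WT libraries (log2 difference 1.22 ± 0.16, adjusted p = 0.000192). Its 14-3-3e KO libraries were even and all above WT, and it passed in the narrow fit. Ifih1, the RNA sensor MDA5, and Trim30a were higher by 0.49 ± 0.12 and 0.34 ± 0.08 (log2). Bst2, which tethers virus particles, Usp18 and Isg20 were lower, with log2 differences of -0.76 ± 0.19, -0.36 ± 0.12 and -0.36 ± 0.12. The guanylate-binding protein genes Gbp7 and Gbp9 were higher by 0.90 ± 0.26 and 0.79 ± 0.22 (log2), as were Upp1 and Ciita, the master regulator of MHC class II, by 1.11 ± 0.30 and 1.31 ± 0.45. Ifngr1, a chain of the IFNγ receptor, was at 2098, 1941 and 1867 in 14-3-3e KO libraries, against 2395, 2544 and 2737 in WT libraries (log2 difference -0.38 ± 0.07, adjusted p = 0.00241), lower in all 3 14-3-3e KO libraries.

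**Figure D5:**
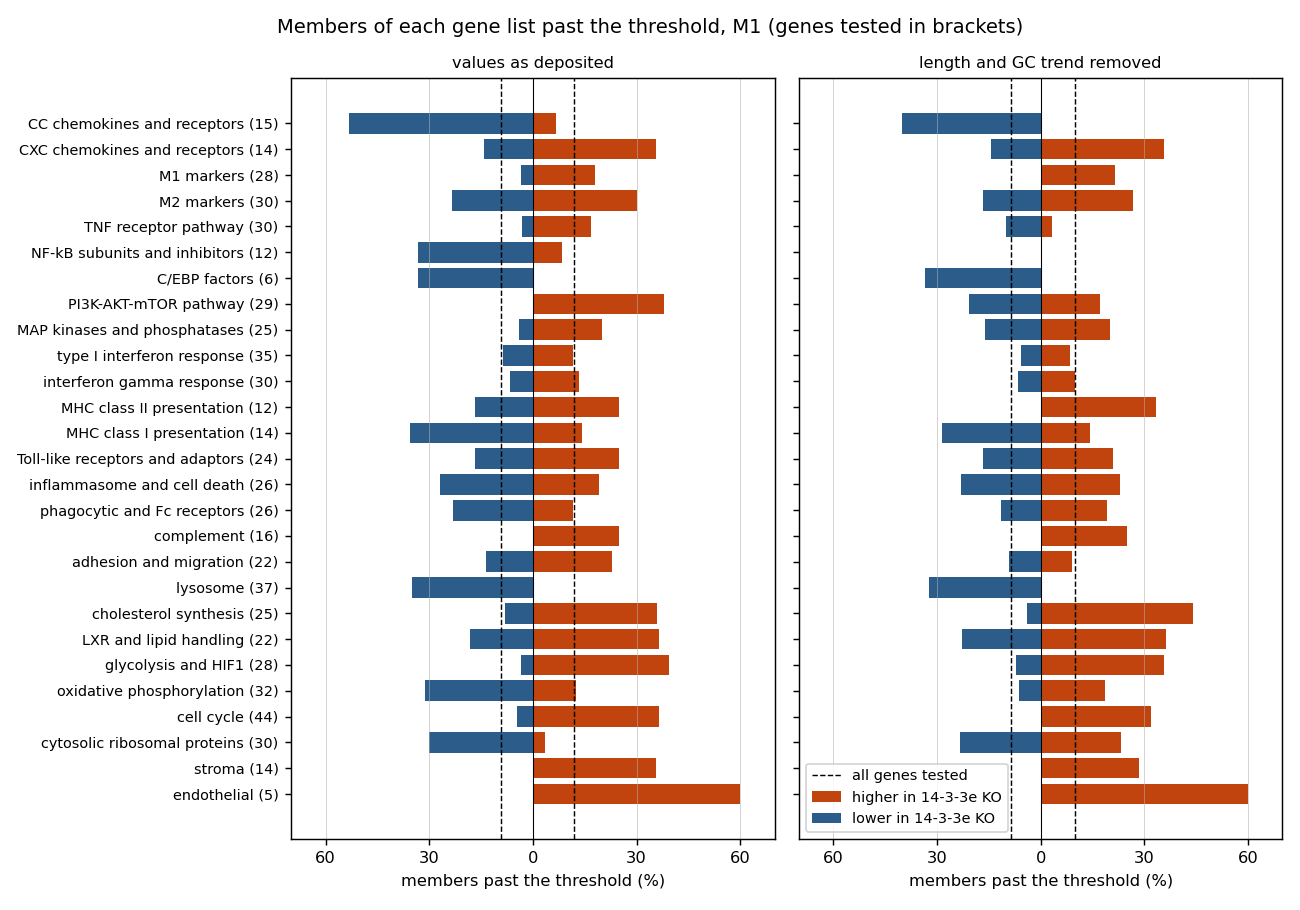
Percent of the tested members of 27 gene lists that were higher (red, to the right) or lower (blue, to the left) in 14-3-3e KO than in WT M1 macrophages, as deposited (left panel) and with the length and GC trends removed (right panel); dashed lines give the percent over all genes tested. CC chemokine and lysosome genes are lower in both panels, whereas the PI3K-AKT-mTOR list, with 11 of 29 genes higher as deposited, has 5 higher and 6 lower with the trends removed.

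Genes of MHC class II, which presents peptides to CD4+ T cells, included 3 large rises, and those of class I, which presents to CD8+ T cells, small falls. H2-Aa, an MHC class II chain, was at 7220.4, 4407 and 2854 in 14-3-3e KO libraries, against 2194, 1181 and 1167 in WT libraries (log2 difference 1.64 ± 0.45, adjusted p = 0.0215). H2-Eb1 was at 3763, 2294 and 1614 in 14-3-3e KO libraries, against 1146, 640.1 and 616 in WT libraries (log2 difference 1.65 ± 0.46, adjusted p = 0.0229). Cd74, the invariant chain, was at 40488, 26544 and 17751 in 14-3-3e KO libraries, against 16561, 7712 and 8452 in WT libraries (log2 difference 1.38 ± 0.41, adjusted p = 0.0299). In all 3 genes 14-3-3e KO replicate 1 was the highest, replicate 3 was the lowest of its group, and the groups did not overlap. The calls did not hold in the narrow fit (adjusted p = 0.0759, 0.0686 and 0.102). Of 12 class II genes 3 were higher and 2 lower, the protease gene Ctss and the thiol reductase gene Ifi30 (-0.42 ± 0.13 and -0.43 ± 0.10); with the trends removed these 2 falls ended, Ifi30 at 0.0191, and H2-Ab1 was also higher (1.43). Of 14 class I genes, 5 were lower and 2 higher, and with the trends removed 4 and 2. The class I chain genes H2-K1, H2-D1, H2-T22 and H2-T23 were lower, with log2 differences of -0.41 ± 0.10, -0.29 ± 0.08, -0.47 ± 0.13 and -0.48 ± 0.12, and so was B2m (-0.27 ± 0.07), which encodes their shared light chain. The chaperone gene Canx and the peptidase gene Erap1 were higher by 0.52 ± 0.11 and 0.53 ± 0.11 (log2). Class I genes share sequence, so reads may be split between them.

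Of 26 phagocytic and Fc receptor genes, 6 were lower and 3 higher (23.1% and 11.5%), and with the trends removed 3 and 5. Trem2, a lipid-sensing receptor of macrophages and microglia, was at 1550.0, 2083 and 1755 in 14-3-3e KO libraries, against 3955, 3442 and 5157 in WT libraries (log2 difference -1.21 ± 0.14, adjusted p = 6.29e-05). Fcgr4, an activating IgG receptor, was at 5585, 5905 and 4425 in 14-3-3e KO libraries, against 12392, 10496 and 10756 in WT libraries (log2 difference -1.09 ± 0.17, adjusted p = 0.000663). In both, every 14-3-3e KO library lay under every WT library, and both passed in the narrow fit. Fcgr2b, the inhibitory IgG receptor, Fcer1g, the signalling chain of Fc receptors, and Cd5l were lower, with log2 differences of -0.46 ± 0.11, -0.43 ± 0.08 and -0.78 ± 0.22. Of these, Fcgr2b passed with the trends removed, Cd5l did not and Fcer1g turned to 0.0367 (adjusted p = 0.82). Itgav, Axl, a receptor for apoptotic cells, and Clec4e, the lectin Mincle, were higher by 0.74 ± 0.14, 0.51 ± 0.11 and 0.56 ± 0.15 (log2). Of 16 complement genes 4 were higher, and with the trends removed also 4. Itgax, a chain of complement receptor 4, was at 1091, 1168 and 1110.2 in 14-3-3e KO libraries, against 491, 475 and 609.6 in WT libraries (log2 difference 1.10 ± 0.15, adjusted p = 0.000184). C3, the central component, was at 19652, 22454 and 19258 in 14-3-3e KO libraries, against 10894, 12274 and 14419 in WT libraries (log2 difference 0.71 ± 0.20). Cd59a, an inhibitor of complement, was higher by 0.81 ± 0.17 (log2).

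Lysosomal genes, whose products degrade proteins, lipids and sugars taken up by the cell, were lower where they changed. Of 37 genes, 13 were lower and 0 higher by limma, with 1 higher at an unadjusted p under 0.05 and 0 higher by voom. The share lower was 35.1%, beside 9.31% over all genes and 11.2% over protein-coding genes. With the length and GC trends removed 12 were lower. The median difference was -0.23 as deposited, beside 0.07 over all genes, and -0.16 with the trends removed. Lgmn, the protease legumain, was at 24892, 24911 and 23122 in 14-3-3e KO libraries, against 39428, 38521 and 43983 in WT libraries (log2 difference -0.74 ± 0.08, adjusted p = 3.33e-05). Gla, alpha-galactosidase A, was at 2347, 2769.8 and 2629 in 14-3-3e KO libraries, against 3959.8, 3684 and 3676 in WT libraries (log2 difference -0.55 ± 0.09, adjusted p = 0.000619). In both, every 14-3-3e KO library lay under every WT library, and both passed in the narrow fit. Npc2, a cholesterol carrier, was lower, with a log2 difference of -0.51 ± 0.11. The cathepsin genes Ctsa, Ctsf, Ctsh and Ctsz were lower, with -0.35 ± 0.08, -0.47 ± 0.12, -0.24 ± 0.08 and -0.45 ± 0.12. Neu1, Cln3, Mcoln1 and Atp6v1h were also lower, with differences between -0.32 and -0.43.

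Of 25 genes of cholesterol synthesis and uptake, 9 were higher and 2 lower, and with the trends removed 11 and 1. In PGRN KO M1 macrophages, against the same WT libraries, 16 of the 25 were higher and 2 lower, beside 14.2% and 11.1% of all genes. Sqle, squalene epoxidase, was at 777, 629 and 531 in 14-3-3e KO libraries, against 214, 343 and 415 in WT libraries (log2 difference 1.03 ± 0.19, adjusted p = 0.00209). It was above WT in each 14-3-3e KO library, as were Insig1 and Stard4 (0.75 ± 0.15 and 0.70 ± 0.14). Srebf2, the controlling transcription factor, was higher by 0.52 ± 0.13 (log2), whereas Hmgcs1 was lower, with a log2 difference of -0.44 ± 0.12. The lowest adjusted p of the list in the narrow fit was 0.0927, for Sqle. In the LXR and lipid handling list, 8 of 22 were higher and 4 lower, and with the trends removed 8 and 5. Fasn, the fatty acid synthase gene, was at 1984, 1836 and 1543 in 14-3-3e KO libraries, against 633, 886 and 859 in WT libraries (log2 difference 1.18 ± 0.15, adjusted p = 0.000102). The desaturase genes Scd1 (0.997 ± 0.153) and Scd2 (0.97 ± 0.13) were also higher, as were Acsl1 (0.91 ± 0.20) and the cholesterol exporter Abca1 (0.76 ± 0.21). The genes lower in 14-3-3e KO included carriers of lipids. The fatty acid-binding protein gene Fabp5 was at 4312, 3984 and 4011 in 14-3-3e KO libraries, against 8481, 9237 and 15492 in WT libraries (log2 difference -1.38 ± 0.17, adjusted p = 8.09e-05). Apoe, the lipid carrier of macrophages, was at 100546, 94535 and 58198 in 14-3-3e KO libraries, against 229546, 171065 and 252460 in WT libraries (log2 difference -1.39 ± 0.25, adjusted p = 0.00209). Plin2, of lipid droplets, and Lpl were lower, with log2 differences of -0.69 ± 0.12 and -0.45 ± 0.12. Fasn, Scd1, Scd2, Fabp5 and Apoe passed in the narrow fit.

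Of 28 glycolysis and HIF1 genes, 11 were higher and 1 lower, beside 12% and 9.31% over all genes, and with the trends removed 10 and 2. None of these calls held in the narrow fit. Slc2a1, the glucose transporter GLUT1, was at 2376, 2698 and 2773 in 14-3-3e KO libraries, against 1744, 1913 and 1698 in WT libraries (log2 difference 0.55 ± 0.08, adjusted p = 0.000359). Hif1a was at 4550.1, 5483 and 5503 in 14-3-3e KO libraries, against 1899.6, 4156 and 3365 in WT libraries (log2 difference 0.79 ± 0.19, adjusted p = 0.0106). The glycolytic genes Hk1, Hk2, Pfkp, Gapdh and the lactate exporter Slc16a3 were higher by 0.47 ± 0.07, 0.43 ± 0.13, 0.48 ± 0.08, 0.43 ± 0.08 and 0.49 ± 0.11 (log2). The calls of Hk2 and Pfkp ended with the trends removed. The 1 gene lower was Eno1, whose copy Eno1b is described above. Oxidative phosphorylation and citrate cycle genes had 4 of 32 higher and 10 lower as deposited, and 6 higher and 2 lower with the trends removed, so that the balance of the counts turned, and none passed in the narrow fit. The list's median exon length was 2208 bp, and those that were lower encode respiratory chain subunits, such as Cox5a (-0.61 ± 0.16), Cox7c (-0.72 ± 0.19) and Ndufb3 (-0.68 ± 0.17).

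Smaller metabolic lists were mixed, and apart from the unfolded protein and ATF4 list none of their genes passed in the narrow fit. In arginine, nitric oxide and itaconate metabolism, 2 of 12 were higher and 2 lower: the arginine transporter genes Slc7a1 and Slc7a2 by 0.71 ± 0.13 and 0.69 ± 0.21, and Ddah2 and Asl by -0.75 ± 0.18 and -0.36 ± 0.12. With the trends removed 1 was higher and 2 lower. Of 18 NRF2 and oxidative stress genes, 5 were higher, led by G6pdx, the first enzyme of the pentose phosphate pathway (0.54 ± 0.10), and Gclc, of glutathione synthesis (0.81 ± 0.19). The 2 lower were Hmox1, the heme oxygenase (-0.49 ± 0.14), and Txn1 (-0.47 ± 0.16). Once the trends were removed 4 were higher, and the calls of Hmox1 and Txn1 ended (adjusted p = 0.326 and 0.496). The median of that list was -0.04 as deposited and 0.08 with the trends removed. Of 24 genes of the unfolded protein and ATF4 responses, 8 were higher and 3 lower, and with the trends removed 11 and 2. Psat1, of serine synthesis, was at 997, 992 and 1036 in 14-3-3e KO libraries, against 598, 646 and 543 in WT libraries (log2 difference 0.76 ± 0.08, adjusted p = 1.52e-05). Slc7a5, an amino acid transporter, was at 1341, 1473 and 1609 in 14-3-3e KO libraries, against 812, 1002 and 881 in WT libraries (log2 difference 0.72 ± 0.12, adjusted p = 0.000805). These 2 passed in the narrow fit, while the transcription factor genes Ddit3, Atf4 and Atf3 were lower, with log2 differences of -0.67 ± 0.18, -0.38 ± 0.12 and -0.42 ± 0.14. Of 14 iron and heme genes, 2 were higher and 3 lower, the ferritin chains Ftl1 and Fth1 and the haptoglobin gene Hp (-0.55 ± 0.14, -0.42 ± 0.12 and -0.73 ± 0.20). Of these 5 calls, that of Fth1 alone held with the trends removed. Of 16 prostaglandin and leukotriene genes, 3 were lower and 2 higher, and with the trends removed 2 and 2. Hpgds, the prostaglandin D synthase, was at 876, 753 and 617 in 14-3-3e KO libraries, against 1150.5, 1274 and 1539 in WT libraries (log2 difference -0.82 ± 0.14, adjusted p = 0.000967). The 2 higher were Ptges (0.48 ± 0.15) and Pla2g4a (0.49 ± 0.14).

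Of 44 cell cycle genes, 16 were higher and 2 lower, beside 12% and 9.31% over all genes. With the trends removed 14 were higher, and in the narrow fit none of the list passed. Tyms, thymidylate synthase, was at 520.2, 367 and 325 in 14-3-3e KO libraries, against 196, 207 and 247 in WT libraries (log2 difference 0.87 ± 0.13, adjusted p = 0.000600). Ccne2, cyclin E2, was at 103, 106 and 105 in 14-3-3e KO libraries, against 40.1, 63.1 and 45.7 in WT libraries (log2 difference 1.08 ± 0.17, adjusted p = 0.000802). Every 14-3-3e KO library was above every WT library in both, with 14-3-3e KO replicate 1 the highest for Tyms. Kif11, a mitotic motor, was at 527, 353 and 283 in 14-3-3e KO libraries, against 196, 218 and 247 in WT libraries (log2 difference 0.77 ± 0.17, adjusted p = 0.00662), again highest in 14-3-3e KO replicate 1. Ccnb1, Top2a, Bub1 and Plk1 were higher by 0.84 ± 0.21, 0.68 ± 0.18, 0.76 ± 0.17 and 0.56 ± 0.18 (log2). The replication genes Pcna and Cdt1 were lower, with log2 differences of -0.31 ± 0.09 and -0.39 ± 0.11. Of 30 cytosolic ribosomal protein and elongation factor genes, 9 were lower and 1 higher, and with the trends removed 7 were lower and 7 higher. Rpl3 was at 5223, 4594 and 4430.1 in 14-3-3e KO libraries, against 13065, 11684 and 11472 in WT libraries (log2 difference -1.35 ± 0.08, adjusted p = 1.97e-08). It passed, like Rplp0, in the narrow fit. Genes of this list have many pseudogene copies.

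Other lists held fewer changes. The adhesion and migration list of 22 genes had 5 higher, Itgb1 (0.44 ± 0.07) and Cd44 (0.51 ± 0.12) among them. Once the trends were removed 2 were higher and 2 lower. As deposited, the 3 lower were Pdpn, Itgb7 (-0.61 ± 0.18) and Selplg. Selplg, the gene of the P-selectin ligand, was at 2354, 2605 and 2083 in 14-3-3e KO libraries, against 3549.5, 3384 and 3916 in WT libraries (log2 difference -0.63 ± 0.10, adjusted p = 0.000809). Of 22 matrix and protease genes, 5 were higher and 3 lower, and with the trends removed 5 and 2. Adamts1, a metalloprotease gene, was at 1279, 1607 and 1476 in 14-3-3e KO libraries, against 682, 911 and 765 in WT libraries (log2 difference 0.89 ± 0.12, adjusted p = 0.000166), and Adamts4 was higher by 0.96 ± 0.17 (log2). The macrophage elastase gene Mmp12 was at 1859, 2279 and 1817 in 14-3-3e KO libraries, against 3893, 3262 and 3334 in WT libraries (log2 difference -0.82 ± 0.15, adjusted p = 0.00158), and Mmp27 was also lower (-1.57 ± 0.26). All 4 genes passed in the narrow fit. Of 13 osteoclast and fusion genes, 2 were higher, Nfatc1 and Fosl2 (0.52 ± 0.14 and 0.37 ± 0.12), and with the trends removed 1. Of 12 genes of the interleukin-1 family and its receptors, 1 was higher and 1 lower, and with the trends removed 1 and 2. Il1rap, the accessory receptor, was at 266, 283 and 242 in 14-3-3e KO libraries, against 120.4, 167 and 128 in WT libraries (log2 difference 0.94 ± 0.13, adjusted p = 0.000226), and Il18bp was lower (-0.50 ± 0.14). Of 21 genes tested in the IL-6 and IL-10 families and growth factors, 2 were lower, Ebi3 and Il10rb (-0.58 ± 0.12 and -0.33 ± 0.09), and with the trends removed also 2. Of 32 macrophage lineage and AP-1 factors, 8 were lower and 1 higher, and with the trends removed 5 and 1. None of these factors passed in the narrow fit. Jun, Junb and Spi1, the master factor PU.1, were lower, with log2 differences of -0.43 ± 0.09, -0.54 ± 0.12 and -0.36 ± 0.09. Hes1, a target of Notch signalling, was higher by 0.70 ± 0.19 (log2).

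Markers of macrophages and of other cells were set beside these results. The cells carried the markers of macrophages at high level. Cd68 was at 11882, 11902 and 12060.4 in 14-3-3e KO libraries, against 12504, 16645 and 18808 in WT libraries. Emr1, which encodes F4/80, was at 59781, 69286 and 60913 in 14-3-3e KO libraries, against 24891, 45299 and 48609.6 in WT libraries. Of 10 identity genes, 5 were lower and 2 higher, and with the trends removed 3 and 2. Lyz2, which encodes lysozyme M and whose locus carries Cre in the widely used LysM-Cre line, was at 123842, 32601 and 69486 in 14-3-3e KO libraries, against 172932, 235900 and 299713 in WT libraries (log2 difference -1.82 ± 0.45, adjusted p = 0.0144). Its neighbour Lyz1 was at 1648, 1249 and 3041 in 14-3-3e KO libraries, against 517, 572 and 896 in WT libraries (log2 difference 1.52 ± 0.31, adjusted p = 0.00472). Neither Lyz2 nor Lyz1 passed in the narrow fit, and both calls held with the trends removed. The 2 genes are near-identical in sequence, so reads may be split between them. Fcgr1, the high-affinity IgG receptor, was lower, with a log2 difference of -0.51 ± 0.12. Stromal genes made up 3.15% to 3.87% of the reads of 14-3-3e KO libraries and 1.74% to 3.00% of those of WT libraries. Of the 14 genes 5 were higher, and 4 with the trends removed. The 5 were Col1a2 (0.59 ± 0.18), Sparc (0.57 ± 0.15), Bgn (0.49 ± 0.12), Acta2 (0.46 ± 0.12) and Pdgfrb (0.74 ± 0.16). Of 5 endothelial genes, 0.0402% to 0.0625% of reads in 14-3-3e KO and 0.0141% to 0.0250% in WT libraries, 3 were higher. Cdh5, VE-cadherin, was at 6035, 3794 and 3452 in 14-3-3e KO libraries, against 1802, 1656 and 1155 in WT libraries (log2 difference 1.51 ± 0.36, adjusted p = 0.0113). Kdr and Tek, 2 receptor genes of endothelial cells, were higher by 1.38 ± 0.25 and 1.61 ± 0.32 (log2), and all 3 passed in the narrow fit and with the trends removed. In PGRN KO M1 macrophages, against the same WT libraries, 3 of the 5 endothelial genes were also higher, beside 14.2% of all genes. Between the 2 knockouts 0 of the 5 passed. With the mean log2 level of the stromal list as a covariate, 3224 of the 4541 genes still passed in the same direction, and the part of stromal or endothelial RNA in other results was not tested.

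Few markers of blood cells passed the test. Of 11 neutrophil genes 1 was higher, Mpo, at 395, 161 and 208 in 14-3-3e KO libraries, against 66.9, 42.1 and 61.0 in WT libraries (log2 difference 2.07 ± 0.62, adjusted p = 0.0324). Of 8 dendritic cell genes 3 were higher, Ccr7 (1.87 ± 0.46), Zbtb46 (0.93 ± 0.27) and Siglech, at 4.04, 11.6 and 8.47 in 14-3-3e KO libraries and at 0 in every WT library. Those 8 genes together made up at most 0.00110% of the reads of a 14-3-3e KO library and 0.000834% of a WT library. Of 11 T and NK cell genes 1 was lower, Klrb1c (-1.86 ± 0.56). By limma and by voom, 0 of 9 B and plasma cell genes and 0 of 8 mast cell and basophil genes passed, with 0 and 1 of them at an unadjusted p under 0.05. Of 7 erythroid and megakaryocyte genes tested, 2 were lower, Hbb-bs (-2.81 ± 0.78) and Pf4. Once the trends were removed, 2 of the dendritic and 1 of the mast cell and basophil genes were higher, and the counts of the other 4 blood cell lists were as deposited.

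Of the 4541 genes changed in M1, 933 also passed in M2 in the same direction, 474 higher and 459 lower, and 3 passed in the opposite direction. In M2, 1427 genes (6.69%) passed in all, 709 higher (3.32%) and 718 lower (3.37%). The 2 contrasts share no library. The log2 difference was -0.85 ± 0.08 for Ywhae and -3.79 ± 0.25 for Pdpn in M2, beside -0.72 ± 0.08 and -3.78 ± 0.25 in M1. The difference between the effects in M1 and M2 passed the test for 61 genes (0.286%), 30 with a higher and 31 with a lower effect in M1. Cxcl11 was at 1671, 2502 and 2334 in 14-3-3e KO and 566, 355 and 271 in WT libraries of M1, and at 0.676, 0 and 0 in 14-3-3e KO and 1.33, 0 and 1.03 in WT libraries of M2. At near-zero levels in M2, the knockout effect on it was higher in M1 by 2.99 ± 0.50 (adjusted p = 0.0247). Hebp1, a heme-binding protein gene, was at 679, 793 and 711 in 14-3-3e KO and 352, 245 and 253 in WT libraries of M1, and at 705, 735 and 654 in 14-3-3e KO and 870.1, 801 and 939 in WT libraries of M2. All M1 libraries of 14-3-3e KO lay above WT and all M2 libraries below it (difference of effects 1.69 ± 0.17, adjusted p = 0.000137). Cd14, Itgax and Slamf8 were higher in 14-3-3e KO in M1 and did not pass in M2, with differences of effects of 1.26, 1.13 and 1.07. In the other direction, Ccl4 was at 257, 242 and 194 in 14-3-3e KO and 337, 280.0 and 319.5 in WT libraries of M2, and the difference of effects was -1.63 ± 0.26 (adjusted p = 0.0232). Hebp2, Nxpe5 and Wfdc17 also had a lower effect in M1, with differences of -2.04, -1.69 and -1.44. The count of 61 depended on single libraries, from 9 without 14-3-3e KO M2 replicate 2 or without WT M2 replicate 1 to 192 without WT M1 replicate 2, and was 8 with only the 4 groups compared in the fit. Same-numbered 14-3-3e KO libraries of M1 and M2 deviated together (correlations of 0.53, 0.40 and 0.43), unlike those of WT (0.35, 0.01 and -0.35), so the contrast is partly paired, and with the number as a block 49 genes passed.

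Set against PGRN KO macrophages in M1, 14-3-3e KO macrophages differed in 5337 genes (25%), 2676 higher and 2661 lower. This contrast shares the 14-3-3e KO libraries with the one against WT. Grn, the gene deleted in the PGRN KO, was at 69306, 69903 and 66328 in 14-3-3e KO libraries and at 497, 212 and 231 in PGRN KO libraries. Cxcl13 was at 277, 292 and 275 in 14-3-3e KO libraries, at 10.2, 0 and 0 in PGRN KO libraries and at 8.92, 18.0 and 6.10 in WT libraries. Ifi44l, Eno1b and Rplp0-ps1 also stood higher in 14-3-3e KO than in PGRN KO. Adgb was at 12.9, 36.7 and 33.9 in 14-3-3e KO libraries and at 550.3, 366 and 627 in PGRN KO libraries. Npy was at 101, 83.0 and 29.6 in 14-3-3e KO libraries and at 1097, 1108 and 1217 in PGRN KO libraries. Erdr1 was at 16.5, 44.3 and 31.7 in 14-3-3e KO libraries and at 632, 764 and 622 in PGRN KO libraries. In these 3 genes every 14-3-3e KO library lay below every library of both other genotypes. Serpina3i was lower in 14-3-3e KO, at 11.5, 11.1 and 7.41, than in PGRN KO, at 311, 354 and 269, while WT was at 13.4, 13.5 and 12.2. Rps2-ps13 was at most 7.87 in 14-3-3e KO libraries, and at 1033, 12.5 and 1561 in PGRN KO libraries, 2 of the 3 PGRN KO libraries being high. Pdpn was at 162, 195 and 319 in 14-3-3e KO and 509, 689.8 and 589 in PGRN KO libraries (-1.45 ± 0.25), against 3009.9, 3159.8 and 2770.5 in WT libraries. Stromal markers were lower in PGRN KO, and with their mean log2 level as a covariate 1498 genes differed between the knockouts.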

How the data were processed

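Total RNA of bone marrow-derived macrophages was sequenced, per the labels' protocols, and the authors deposited 1 table of log2(normalised count + 1) values for 18 libraries. The submitters' processing notes name STAR, RSEM 1.3.1, DESeq2 and the build GRCh38, whereas the gene IDs are mouse; no coordinate of that build was used, and the sources used here do not say whether counting used strand. Every value converted back to whole reads within 0.1 read, which gave the depths. Groups came from the labels. Genes reaching a normalised count of 1 in 3 or more libraries (21336) entered the test with limma 3.58.1 (trend and robust variance, R 4.3.3) over all 6 groups, with Benjamini-Hochberg adjustment and a threshold of 0.05. On simulated data with 200 changed genes, this test recovered 100% of 2-fold changes and called 50 of the unchanged genes among 21525. With only the 2 groups in the fit it recovered 99% and called 5. The simulation gave every gene and group the same dispersion (0.00767) and no trend of length or GC content. It therefore cannot show how the test does on these data, where WT libraries of M1 spread more than those of 14-3-3e KO. Alternatives were the narrow fit, thinning to equal depth, voom on recovered reads, library totals, a pseudocount of 0.1, other filters, a replicate block and each library left out; length and GC trends (lowess fraction 0.3, statsmodels 0.14.6), a stromal covariate and leaving out libraries rich in ribosomal RNA were added after seeing the data. Lengths and positions are from GENCODE M21 (GRCm38), which matched 42425 of the 43309 genes, and promoters from RefSeq (GRCm38.p6). Genes named by rule were the 14-3-3 family, the 15 largest rises and falls (past the threshold, groups not overlapping, a mean of at least 5 CPM, no predicted or clone name), 5 at each end of both further contrasts, up to 4 genes of smallest p in each gene list, and every member of the TNF receptor, PI3K and C/EBP lists; other members named were chosen after their values were seen. Some genes that meet these rules are not reported here. The gene lists and members were chosen with earlier results of these data known. Counting intervals are for reads pooled over the libraries of a group and cover counting error only, not the spread among libraries.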

Additional observations from a re-analysis of the deposited data

Results flagged for a closer look

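For 16 genes named above, the effect of the 14-3-3e knockout differed between M1 and M2 macrophages by limma's test of that difference over all genes. The effect (log2, 14-3-3e KO minus WT) was higher in M1 than in M2 by 2.99 for Cxcl11, 1.69 for Hebp1, 1.26 for Cd14, 1.13 for Itgax and 1.07 for Slamf8. It was also higher in M1 by 1.03 for Nlrc4, 0.91 for Psat1, 0.62 for Pik3cb, 0.58 for Slc2a1 and 0.58 for Pfkp. The difference of effects was -2.04 for Hebp2, -1.69 for Nxpe5, -1.63 for Ccl4 and -1.44 for Wfdc17. It was -1.25 for Xaf1, which was higher in 14-3-3e KO in both states, and -0.97 for Il4ra. Cxcl11 was at or under 3 reads in every M2 library, so its value rests on the M1 libraries.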

How the results depend on the processing

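In M1, the count of genes higher and lower in 14-3-3e KO was 220 and 165 with only the groups compared in the fit, 320 and 239 when the length and GC trends were also removed, and 1524 and 1172 at equal depth, where fewer reads are left. It was 1586 higher with voom and 1216 lower with library totals. Leaving out 1 library gave 1276 to 3583 higher and 996 to 2875 lower. The 61 genes whose effect differed between M1 and M2 numbered 8 with only the groups compared, 14 when the trends were also removed, 16 at equal depth, 15 with voom, 37 with library totals, 120 without the pair of libraries with most reads resembling ribosomal RNA, and 9 to 192 with 1 library left out. The count against PGRN KO was 1498 with the stromal covariate. Removing the length and GC trends turned the sign of some named genes. Those past the threshold in either form included Ripk1 (-0.00736), Cflar (-0.33, adjusted p = 0.0151), Pik3ca (-0.0451), Ifi30 (0.0191) and Fcer1g (0.0367). Those past it in neither form included Tnf (0.0390), Tnfrsf1a (0.0443), Tab2 (-0.0711) and Ikbkg (-0.148). These log2 values are by construction the same with only the groups compared, where the adjusted p of Cflar was 0.165. Beyond what is said here the causes were not tested. Ywhae passed under all alternatives run, between -0.79 and -0.63. Same-numbered 14-3-3e KO and WT libraries of M1 did not deviate together (correlations of 0.10, -0.20 and -0.02), so they are not taken as pairs; with the replicate block 2625 genes were higher and 2091 lower. The depth of the WT libraries, 5157638 to 14518830 reads, limits genes of low level.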
